A study of Mus musculus with 4 samples.

Results

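Among CD4 T cells of the pancreatic islets, 178 cells held at least 1 molecule of Nt5e RNA and were compared with 828 cells in which none was counted. All 1006 cells also held Izumo1r RNA. Nt5e encodes CD73 and Izumo1r encodes folate receptor 4, the surface pair by which anergic CD4 T cells are often recognised. Both classes were chosen by their UMIs, the unique molecular identifiers by which captured RNA molecules are counted. A cell was taken with 500 or more genes, at most 10% mitochondrial UMIs, no UMI of Cd8a, Cd8b1 or Foxp3 and 1 or more of Izumo1r. Of 4150 barcodes 3809 passed the filters on genes and mitochondrial UMIs, 2681 also lacked Cd8a, Cd8b1 and Foxp3, and 1006 of those had Izumo1r.

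The cells came from female NOD mice, an inbred strain that develops autoimmune diabetes spontaneously, which were labelled pre-diabetic and carried no further allele or treatment. Live T cell receptor beta-positive islet cells, with dead cells excluded by DAPI, were profiled at 8 and at 16 weeks of age with droplet 5' chemistry. Each age gave 1 RNA library and 1 T cell receptor library, and the number of mice in each was not given in the sources used here. The 8-week library contributed 96 cells with Nt5e and 435 without, and the 16-week library 82 and 393. The libraries held 8659371 and 8183747 UMIs over 2043 and 2107 barcodes, of which 5 kept barcodes occurred in both. With 1 library per age, ages were not tested against each other. Each interval below is a 95% interval for counting error, exact except for differences between shares. It leaves out the spread between cells and mice.

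Anergy is a state in which a T cell that met antigen without sufficient costimulation survives but responds poorly to a further encounter. CD73 is an enzyme on the cell surface that turns AMP into adenosine, which dampens T cells through adenosine receptors. Folate receptor 4 and CD73 are not confined to anergic cells, since regulatory T cells, follicular helper T cells and some memory cells also carry them. In NOD islets, CD4 T cells drive the destruction of beta cells, and anergy is among the mechanisms known to restrain them.

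Nt5e RNA was sparse, and its detection rose with the number of UMIs of a cell. Nt5e lies on chromosome 9 (mm10, 88327197 to 88372092, plus strand) and Izumo1r on the same chromosome (14885814 to 14903949, minus strand). At 8 weeks 75 cells had 1 Nt5e UMI, 17 had 2 and 4 had 3. At 16 weeks the numbers were 65, 15 and 2, so most detected cells were called from a single molecule. Nt5e was found in 3.70% of the shallowest 54 cells and in 35.8% of the deepest 53 at 8 weeks. The corresponding shares were 6.25% of 48 and 35.4% of 48 at 16 weeks. Detected cells had medians of 5550 and 4626 UMIs, and undetected cells 3249 and 3138. The undetected class therefore held shallow cells in which Nt5e RNA could have been missed, and the gene ratios and the values called depth-matched below were matched on UMIs per cell in 10 depth bins per library.

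**Figure D1:**
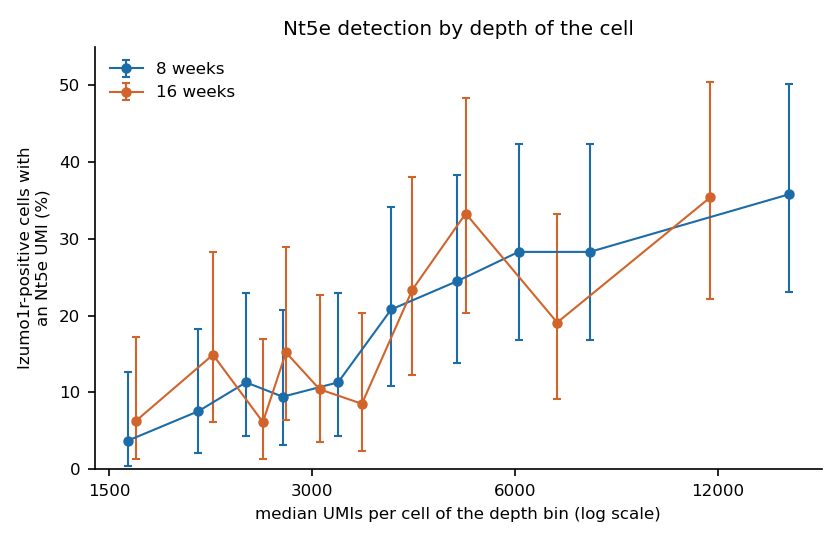
Share of Izumo1r-positive cells with an Nt5e UMI (y axis, percent, exact 95% intervals) against the median UMIs per cell of 10 depth bins (x axis, log scale), for the 8-week and 16-week libraries. The share rose from 3.70% and 6.25% in the shallowest bins to 35.8% and 35.4% in the deepest.

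Nt5e was found in 18.1% of Izumo1r-positive cells at 8 weeks and 17.3% at 16 weeks before any correction for depth. With each cell thinned to 1700 UMIs and shallower cells left out (34 and 27), the shares were 7.24% (5.12 to 9.89) and 8.26% (5.88 to 11.2). In cells with a Cd8a or Cd8b1 UMI the thinned shares were 2.74% (1.32 to 4.98) and 2.52% (1.21 to 4.58). At this depth these lay below the Izumo1r-positive intervals in both libraries. Cells of the same gate without Izumo1r had 4.38% (2.95 to 6.23) at 8 weeks, an interval that overlapped that of the Izumo1r-positive cells. At 16 weeks they had 1.75% (0.959 to 2.92), below the Izumo1r-positive interval. Foxp3-positive cells, the regulatory T cell class, had 4.85% (2.12 to 9.33) and 5.84% (2.55 to 11.2), which overlapped the Izumo1r-positive shares. The 8-week overlap of cells without Izumo1r depended on the thinning depth. At 1200 UMIs they had 2.91% (1.83 to 4.37) against 5.11% (3.40 to 7.35) with Izumo1r. At 2500 UMIs they had 4.49% (2.63 to 7.08) against 11.5% (8.47 to 15.1), and the intervals did not overlap. The thinning depth also mattered for cells with a Cd8a or Cd8b1 UMI. At 1200 UMIs they had 1.87% (0.756 to 3.82) and 2.70% (1.36 to 4.78). These overlapped the Izumo1r-positive intervals of 3.40 to 7.35 and 3.81 to 8.23. At 2500 UMIs they had 4.46% (2.46 to 7.37) and 4.65% (2.68 to 7.44), below 8.47 to 15.1 and 8.18 to 14.9 in Izumo1r-positive cells. The difference between Izumo1r-positive cells and the other classes was not tested, since each class was seen in 1 library per age.

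Izumo1r itself, which set the membership, was somewhat higher in cells with Nt5e. Its level, in counts per 1e6 UMIs of the class (CPM), was 718 CPM in detected cells against 581 CPM in depth-matched undetected cells at 8 weeks, and 822 against 615 CPM at 16 weeks. Close to the threshold for membership, cells with exactly 1 Izumo1r UMI held Nt5e in 8.33% and 11.0% of cases, and cells with 4 or more in 29.5% and 28.1%, without thinning. These values describe the selection and were not tested.

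The labels of the cells were checked on genes that the selection had not used. All 7 T cell lineage genes found in the matrices (Cd3d, Cd3e, Cd3g, Cd4, Zbtb7b, Lck and Cd5) had UMIs in both classes, with log2 ratios of detected to undetected cells between 0.05 and 0.33. Cd4 was seen in 79.2% and 85.4% of detected cells and in 60.2% and 55.5% of undetected cells, and depth matching brought the latter to 70.5% and 64.6%. The name CD4 T cell thus rests in part on the absence of Cd8a and Cd8b1. Ikzf2, a transcription factor of many regulatory T cells, had a UMI in 58.3% and 40.2% of detected and 47.2% and 36.3% of depth-matched undetected cells. Il2ra was seen in 10.4% and 9.76% of detected cells and in 7.36% and 4.07% of undetected cells, without depth matching. The part of regulatory T cells whose Foxp3 RNA was missed was not tested beyond leaving out cells with either gene, as given further on.

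RNA of other cells was found in both classes. Myeloid markers Csf1r, Itgax, C1qa, Fcgr3 and Adgre1 were at 0 in detected cells of both libraries, as were 7 of 8 endothelial and stromal markers. All of these were also scarce in undetected cells, with at most 10 UMIs in a library (Itgax at 16 weeks). The remaining myeloid markers had UMIs in detected cells, Cst3 168 and 125, Cd68 8 and 3, and Lyz2 1 and 3. Myeloid markers summed to 248 and 271 CPM in detected cells against 286 and 228 CPM in undetected cells. Acinar RNA summed to 82.7 and 82.8 CPM in detected cells against 69.0 and 194 CPM in undetected cells. NK and gamma-delta markers summed to 77.1 and 33.1 CPM against 125 and 83.2 CPM. B cell markers summed to 376 and 22.8 CPM in detected cells against 361 and 25.8 CPM in undetected cells, and among them H2-Aa had 48 and 197 UMIs at 8 weeks and Cd79b 10 and 15. Cd79a and Ms4a1 had 18 and 3 UMIs in the 8-week detected cells and 0 in the undetected ones, and none in either class at 16 weeks. At least 2 productive beta chains, which a pair of cells in 1 droplet can give, occurred in 16.7% and 23.2% of detected and 8.51% and 14.5% of undetected cells, without depth matching. Gm42418, whose locus overlaps ribosomal RNA sequence, took 1.30% and 1.81% of UMIs in detected cells against 2.79% and 2.51% in undetected ones, also without depth matching.

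In both libraries a larger share of cells with Nt5e than without it belonged to expanded clones, a difference that was not tested with 1 library per age. A clone was a set of cells of 1 library with the same V genes and CDR3 nucleotides of both chains, and its size was counted over all kept cells. At 8 weeks 33 of 85 detected cells with a paired receptor (38.8%, 28.4 to 50) belonged to clones of 2 or more cells. Among undetected cells 75 of 333 did (22.5%, 18.1 to 27.4), or 27.5% at the depth of the detected cells. At 16 weeks the numbers were 16 of 70 (22.9%, 13.7 to 34.4) and 29 of 301 (9.63%, 6.55 to 13.5), or 10.7% at matched depth. The differences were 11.3 and 12.1 percentage points with depth matching. Without it they were 16.3 (5.52 to 27.7) and 13.2 points (4.10 to 24.7), intervals that treat cells of 1 clone as independent, which they are not.

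**Figure D2:**
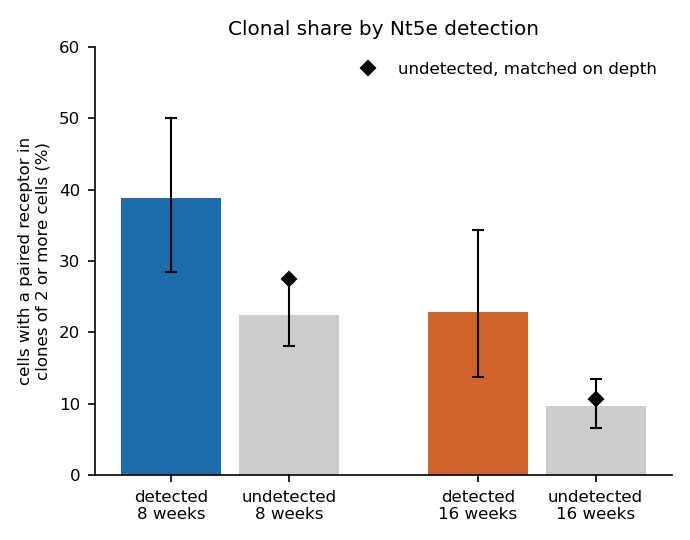
Percent of cells with a paired receptor that belonged to clones of 2 or more cells (y axis), for Nt5e-detected (coloured) and undetected (grey) Izumo1r-positive cells of each age. Bars are observed shares with exact 95% intervals, and diamonds are undetected cells weighted to the depth of the detected ones (27.5% at 8 weeks and 10.7% at 16 weeks), below the detected shares of 38.8% and 22.9%.

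A few clones carried much of this difference. Clones with 2 or more detected cells numbered 3 at 8 weeks, with 12 detected cells, and 2 at 16 weeks, with 8. When these clones were left out, which by construction removes detected cells of expanded clones, the depth-matched differences were 2.57 and 2.42 percentage points. The receptors of the 2 largest of these clones at 8 weeks and the largest at 16 weeks are shown because they carried 16 of those 20 detected cells. Each line gives the CDR3 nucleotides as deposited, with the conserved first and last codons in lower case and the part between them in capitals.
8-week clone 1, alpha chain TRAV21-DV12 with TRAJ57: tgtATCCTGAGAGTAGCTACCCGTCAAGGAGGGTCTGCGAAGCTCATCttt
8-week clone 1, beta chain TRBV13-2 with TRBJ2-7: tgtGCCAGCGGGGGATATGAACAGTACttc
8-week clone 2, alpha chain TRAV13D-1 with TRAJ22: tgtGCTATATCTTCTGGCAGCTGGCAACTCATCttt
8-week clone 2, beta chain TRBV1 with TRBJ1-6: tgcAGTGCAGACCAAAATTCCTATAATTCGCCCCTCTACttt
16-week clone 1, alpha chain TRAV5-4 with TRAJ53: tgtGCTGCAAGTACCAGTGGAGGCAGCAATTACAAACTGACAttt
16-week clone 1, beta chain TRBV19 with TRBJ2-7: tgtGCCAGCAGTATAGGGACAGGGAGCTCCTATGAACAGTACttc

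The 8-week clone 1 had 14 cells, of which 7 were Nt5e-detected, 4 were Nt5e-undetected and 3 fell outside the Izumo1r-positive gate, 1 of these with a Cd8 UMI. Its cells held between 3764 and 15825 UMIs. The 8-week clone 2 had 6 cells, 3 of them detected and 3 without Izumo1r UMIs, of which 1 had Nt5e. In the 16-week clone 1 all 6 cells were Nt5e-detected, at 2968 to 16229 UMIs. The other clones with repeated detection were a pair of detected cells at 8 weeks and a clone of 3 cells, 2 of them detected, at 16 weeks. Of the expanded clones with a detected cell, 12 of 24 at 8 weeks and 6 of 10 at 16 weeks also held an undetected Izumo1r-positive cell. No paired clone had detected cells in both libraries.

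Across the transcriptome, 72 genes were higher and 63 lower in cells with Nt5e. The test was edgeR's quasi-likelihood test on UMIs summed by library and class, with the library as a block and a Benjamini-Hochberg adjusted p under 0.05. Of 4892 genes tested, 1.47% were called higher and 1.29% lower. At an unadjusted p under 0.05 there were 282 and 293. In both libraries 9 genes (0.184%) were 2-fold or more higher and 5 (0.102%) 2-fold or more lower. All 72 higher calls had ratios above 0 in both libraries, and 62 of the 63 lower calls had ratios below 0 in both, the exception being Igfbp4. The median log2 ratio of all genes tested was 0.03.

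How many genes were called depended on how the spread was estimated. With 4 sums and 1 residual degree of freedom, the spread is borrowed across genes, and the 2 libraries stand in for replicates although they differ in age. The spread between cells and between mice does not enter the test. DESeq2 on the same sums called 4 genes higher (1700019D03Rik, Gpm6b, Sdf4 and Tbc1d4) and 2 lower (Ccl5 and Ly6a). The matching, the count minimum or the choice of cells was changed in 12 ways. A gene below the count minimum in any of them could not be called every time. By edgeR 17 higher and 10 lower genes were called in all of them. These were Penk, Gpm6b, 1700019D03Rik, Nrn1, Tbc1d4, Eea1, Cd200, Lag3, Ptms, Sdf4, Fam162a, Tigit, Rilpl2, Mrps6, Ctsb, Rnaset2a and Srgn among the higher. Among the lower they were Hist1h2ap, Gzmk, Ccl5, Il7r, Ly6a, Lef1, Fos, Gm42418, Klf2 and Crip1. Some of these genes were seen in few detected cells, Penk in 13 and 5 and Gzmk in 7 and 4.

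**Figure D3:**
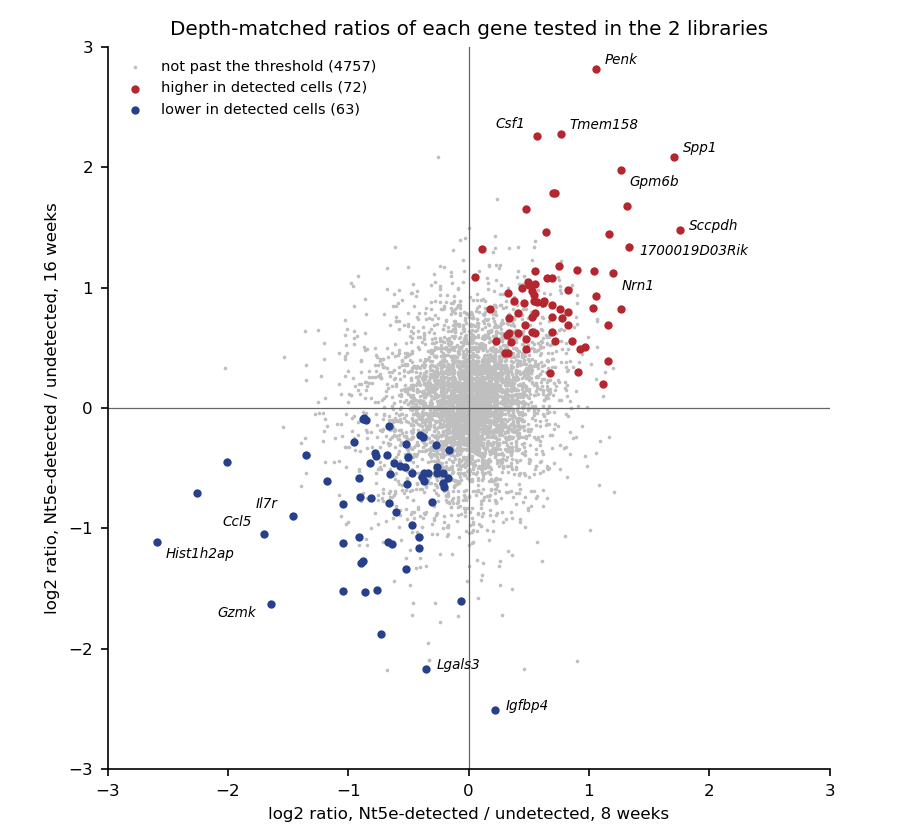
Depth-matched log2 ratio of Nt5e-detected to undetected Izumo1r-positive cells at 8 weeks (x axis) and at 16 weeks (y axis), 1 point per gene tested. The 72 genes called higher (red) and 62 of the 63 called lower (blue) have the same sign in both libraries, with Igfbp4 at 0.22 and -2.51 as the exception.

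Among the genes with the highest ratios, 1700019D03Rik, Tbc1d4, Nrn1 and Gpm6b were over 2-fold higher in both libraries and had UMIs in at least 34.1% of detected cells of each. Without the clones that held 2 or more detected cells, the genes 2-fold or more higher in both libraries numbered 3 rather than 9. Not all of these genes can therefore have stayed past 2-fold in both. 1700019D03Rik is a protein-coding gene on chromosome 1 of little known function. It stood at 272 CPM in detected cells against 107 CPM in undetected cells at 8 weeks, and at 275 against 106 CPM at 16 weeks. It had a UMI in 61.5% and 54.9% of detected cells against 29.0% and 26.8% of depth-matched undetected cells. Its pooled log2 ratio was 1.33 (1.11 to 1.55; edgeR adjusted p = 1.14e-18), nearly the same in each library.

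Tbc1d4 encodes a Rab GTPase-activating protein that controls the traffic of glucose transporters. It was at 363 against 180 CPM at 8 weeks and 364 against 162 CPM at 16 weeks, a log2 ratio of 1.08 (0.90 to 1.27; edgeR adjusted p = 1.73e-15). Nrn1 encodes neuritin, a small lipid-anchored surface protein. It was at 264 against 111 CPM and at 217 against 103 CPM, a log2 ratio of 1.17 (0.94 to 1.40; edgeR adjusted p = 3.89e-13). Gpm6b, a membrane glycoprotein of the proteolipid family, was at 144 against 59.4 CPM and at 184 against 47.8 CPM, a log2 ratio of 1.57 (1.28 to 1.87; edgeR adjusted p = 1.15e-16). In all 3 genes each library's own interval lay above 0.

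The highest pooled ratios belonged to genes seen in few cells. Spp1, which encodes the secreted protein osteopontin, was at 53.3 against 18.5 CPM at 8 weeks and 66.2 against 14.6 CPM at 16 weeks, a log2 ratio of 1.86 (1.34 to 2.39; edgeR adjusted p = 1.43e-07). Only 6 and 5 detected cells carried it, and 1 cell gave 39.5% and 75.0% of its UMIs there. Penk, the precursor of enkephalin opioid peptides, was at 119 against 60.4 CPM and at 217 against 34.5 CPM, a log2 ratio of 1.77 (1.45 to 2.10; edgeR adjusted p = 2.02e-19). It was found in 13 and 5 detected cells, and the share of cells with it was 13.5% against 9.56% at 8 weeks and 6.10% against 4.34% at 16 weeks. The share of cells with Penk thus differed less than its level in both libraries.

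The remaining genes with high ratios had varied roles. Sccpdh, a putative oxidoreductase, and Dhrs3, a retinal reductase, had log2 ratios of 1.64 and 1.46. Twsg1, a secreted binder of bone morphogenetic proteins, had 1.30, and each of these 3 genes was over 2-fold higher in both libraries. Csf1, the macrophage growth factor, was at 21.0 against 14.6 CPM at 8 weeks and 53.8 against 10.9 CPM at 16 weeks. Tmem158 behaved likewise, at 21.0 against 13 CPM and 58.0 against 10.2 CPM. Both had 8-week intervals that included 0 (-0.45 to 1.53 and -0.29 to 1.79 on the log2 scale). Prnp, the prion protein, had log2 ratios of 0.70 and 1.79, Angptl2 0.72 and 1.79, the histone methyltransferase Ash1l 1.27 and 0.82, and Metap1 1.06 and 0.93.

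Cells just inside the threshold, with 1 Nt5e UMI, can be set beside those just outside it as a description. Without depth matching, Gpm6b was at 72.2 and 54.3 CPM in cells with no Nt5e UMI, 149 and 198 CPM with 1, and 128 and 141 CPM with 2 or more. Penk stood at 56.2 and 24.5, then 96.9 and 108, then 199 and 573 CPM. Spp1 was at 26.9, 53.8 and 51.3 CPM at 8 weeks. At 16 weeks it was at 14.3, then 86.6 CPM, and had no UMI in the 17 cells with 2 or more.

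Follicular helper T cells help B cells and express Il21, Pdcd1 and Cxcr5, and several of their genes were among the calls. Of 14 list members that could be tested, 13 had ratios above 0, 6 were called higher and none lower. Among all genes tested 1.47% were called higher and 1.29% lower. The median log2 ratio of the list was 0.53, beside 0.03 for all genes tested. The lists were written with earlier results of these data known, and no test of a list was made. Il21, the cytokine of these cells, was at 88.4 against 44.2 CPM at 8 weeks and 110 against 62.1 CPM at 16 weeks. Its log2 ratio was 0.93 (0.58 to 1.29; edgeR adjusted p = 7.20e-04), and 37.5% and 32.9% of detected cells had it against 19.0% and 16.0% of undetected cells. Cd200, an inhibitory surface ligand, was at 433 against 267 CPM and 414 against 199 CPM, a log2 ratio of 0.84 (0.67 to 1.01; edgeR adjusted p = 5.86e-11).

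The other members called higher were Angptl2, Tnfsf8, Maf and Pdcd1. Tnfsf8, the ligand of CD30, was at 188 against 143 CPM and 230 against 109 CPM (log2 ratio 0.67, edgeR adjusted p = 5.10e-04). Maf, a transcription factor that drives Il21, was at 175 against 130 CPM and 213 against 133 CPM (0.57, edgeR adjusted p = 0.0114). Pdcd1, the PD-1 receptor, was at 269 against 217 CPM and 263 against 157 CPM (0.49, edgeR adjusted p = 0.0114). The Pdcd1 call was lost when detected cells were set against single undetected cells of like depth. The chemokine receptor Cxcr5 had a log2 ratio of 0.80 that missed the threshold (edgeR adjusted p = 0.111), with 1.10 at 8 weeks and 0.20 at 16 weeks. Icos had 0.43 (edgeR adjusted p = 0.137). Bcl6, Sostdc1, Ascl2 and Il4 had too few UMIs to be tested, and their UMIs were not matched on depth. In detected and undetected cells Sostdc1 had 25 and 15 UMIs at 8 weeks and 43 and 58 at 16 weeks. Il4 had 6 and 56, then 0 and 21. Bcl6 had 8 and 25, then 5 and 23, and Ascl2 had 7 and 26, then 3 and 9.

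Inhibitory receptors that mark exhausted T cells overlapped with these genes. Of 11 exhaustion list members tested, Pdcd1, Lag3, Tigit and Cd200 were called higher and none lower, beside 1.47% of all genes tested called higher. The list had a median log2 ratio of 0.36. Lag3, which binds MHC class II, was at 404 against 230 CPM at 8 weeks and 404 against 226 CPM at 16 weeks. It had a UMI in 68.8% and 58.5% of detected cells against 46.0% and 33.4% of undetected cells, a log2 ratio of 0.82 (0.65 to 0.98; edgeR adjusted p = 8.18e-10). Tigit, a receptor for CD155, was at 318 against 221 CPM and 327 against 163 CPM, a log2 ratio of 0.74 (0.55 to 0.92; edgeR adjusted p = 4.50e-07). The transcription factor Tox had a log2 ratio of 0.35 (edgeR adjusted p = 0.490), and Ctla4 had -0.19 at 8 weeks and 0.39 at 16 weeks. Havcr2, Cd160, Eomes and Prdm1 had too few UMIs to be tested.

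Of the anergy and signalling brake genes, 1 of 15 tested was called higher and none lower, beside 1.47% and 1.29% of all genes tested. The list median was 0.17, with 0.03 at 8 weeks and 0.31 at 16 weeks. The called gene was Nfatc1, a calcium-dependent transcription factor, at 180 against 150 CPM and 263 against 139 CPM (log2 ratio 0.62, edgeR adjusted p = 0.00171). That call was lost in several of the selections of cells, among them cells with a Cd4 UMI (log2 ratio 0.48). Egr2, a factor of the anergy programme, differed by library. It had 11 UMIs in detected and 44 in undetected cells at 8 weeks (15.4 against 18.8 CPM), and 31 and 26 at 16 weeks (64.2 against 14 CPM), and the pooled log2 ratio of 1.06 missed the threshold (edgeR adjusted p = 0.0623).

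The ubiquitin ligases and kinases of the anergy list did not pass the test. Cblb had a log2 ratio of 0.13 (-0.28 to 0.52) and Itch -0.68 (-1.50 to 0.06). The diacylglycerol kinases Dgka and Dgkz, which lower signalling from the receptor, had -0.24 (-0.46 to -0.03) and 0.39 (0.10 to 0.68). The phosphatase Ptpn22 had 0.54 (0.25 to 0.82; edgeR adjusted p = 0.0866), the co-receptor Nrp1 0.56 and Ubash3b 0.40. Cd5, Ikzf1, Ubash3a and Dtx1 lay between -0.01 and 0.17. Nr4a1 had -0.47 at 8 weeks and 0.47 at 16 weeks. Egr3, Nr4a3, Rnf128, Ndrg1 and Tle4 had too few UMIs, and Egr3 had at most 1 in any class and library.

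Genes that handle adenosine, the product of CD73, gave 1 higher call among 6 tested, beside 1.47% of all genes tested. Slc29a1, an equilibrative transporter that carries adenosine across the membrane, was at 118 against 84.2 CPM and 174 against 90.0 CPM (log2 ratio 0.74, edgeR adjusted p = 0.00237). Entpd1, which encodes CD39, the enzyme that supplies AMP to CD73, was at 19.6 against 12.8 CPM and 24.8 against 26.7 CPM, with a log2 ratio of 0.22 (-0.51 to 0.92). The adenosine receptor Adora2a had -0.73 (-1.38 to -0.14), which missed the threshold (edgeR adjusted p = 0.193). Adk and Pnp had 0.06 and 0.00, and P2rx7, a receptor for extracellular ATP, had -0.40. Adora2b had no UMI in either class.

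**Figure D4:**
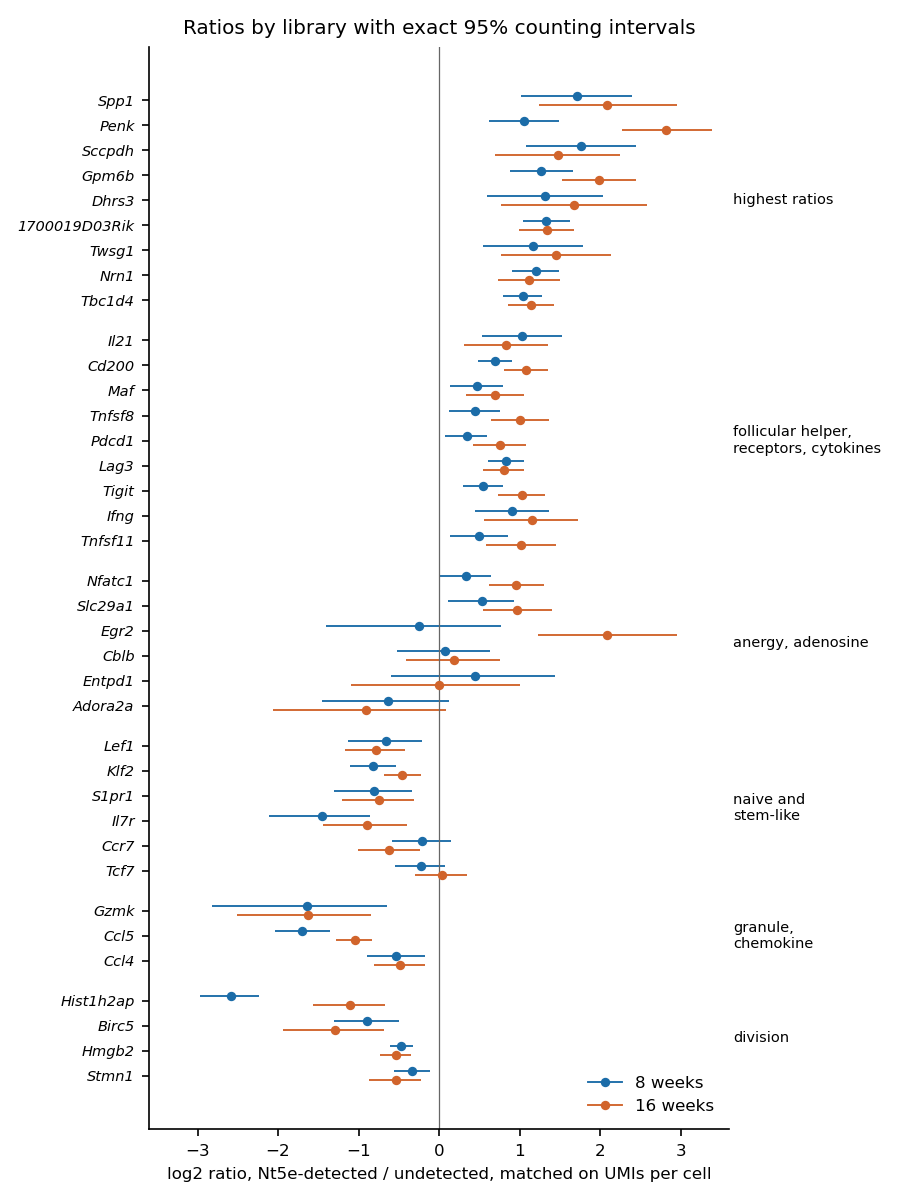
Depth-matched log2 ratios of Nt5e-detected to undetected cells (x axis) for named genes (y axis) in the 8-week and 16-week libraries, with exact 95% counting intervals. Both intervals lie above 0 for Gpm6b, Tbc1d4, Cd200, Lag3 and Tigit and below 0 for Lef1, Klf2, S1pr1 and Il7r, while Egr2 differs by library.

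Of the 12 naive and stem-like genes tested, 8 were called lower in cells with Nt5e, 4 were not called and none was called higher. Among all genes tested 1.29% were called lower. The list had a median log2 ratio of -0.67, against -0.25 at 8 weeks alone and -0.77 at 16 weeks alone. Il7r, the receptor of the survival cytokine IL-7, was at 36.5 against 103 CPM at 8 weeks and 78.7 against 145 CPM at 16 weeks. Its log2 ratio was -1.15 (-1.56 to -0.77; edgeR adjusted p = 1.06e-07). Lef1, a partner of Tcf7 in resting T cells, was at 71.5 against 112 CPM and 153 against 253 CPM, a log2 ratio of -0.74 (-1.03 to -0.45; edgeR adjusted p = 3.55e-05). Klf2 and its target S1pr1, which lets T cells leave tissue, had log2 ratios of -0.61 (edgeR adjusted p = 1.13e-07) and -0.78 (edgeR adjusted p = 1.05e-04), with both library intervals below 0.

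The remaining naive genes were less even. Satb1, a chromatin organiser, had a log2 ratio of -1.01 (edgeR adjusted p = 0.0179). Ccr7, which directs cells to lymph nodes, had -0.21 at 8 weeks and -0.62 at 16 weeks (edgeR adjusted p = 0.0482). Igfbp4 was at 102 against 85.3 CPM at 8 weeks and at 33.1 against 183 CPM at 16 weeks, so its call rests on the 16-week library. Tcf7, the defining factor of stem-like T cells, had a log2 ratio of -0.11 (-0.33 to 0.11) and was at 167 against 199 CPM and 226 against 214 CPM. Foxp1, Id3 and Bcl2 were not called either.

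The Th1 and cytotoxic list split. Of 11 members tested, 2 were called higher and 3 lower, beside 1.47% and 1.29% of all genes tested. Ifng, the Th1 cytokine, was at 102 against 52.7 CPM and 97.3 against 45.8 CPM, a log2 ratio of 1.00 (0.64 to 1.35; edgeR adjusted p = 1.74e-04). Ctsw, a protease of cytotoxic cells, had 0.58 (edgeR adjusted p = 0.00663). Gzmk, a granzyme, was at 12.6 against 40.0 CPM and 31.0 against 95.1 CPM, a log2 ratio of -1.63 (-2.31 to -1.02; edgeR adjusted p = 3.33e-07). Only 7 and 4 detected cells had Gzmk, and 1 cell gave 22.2% and 53.3% of its UMIs in them. The chemokine Ccl5 was at 114 against 372 CPM and 404 against 780 CPM, a log2 ratio of -1.27 (-1.46 to -1.09; edgeR adjusted p = 6.06e-33). Only 6 and 7 detected cells had Ccl5, and 1 cell gave 64.2% and 62.6% of its UMIs in them. Ccl4 had -0.51 with 80.4% and 46.0% of its UMIs in detected cells from 1 cell. When cells with 3 or more UMIs of acinar, B cell or NK and gamma-delta markers were left out, its log2 ratio was 1.52. Tbx21, Cxcr3 and Cxcr6 did not pass the test.

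Of the 12 cell division genes tested at matched depth, 6 were called lower, 6 were not called and none was called higher. Among all genes tested 1.29% were called lower. The list had a median log2 ratio of -0.39. Without depth matching that median was 0.21, so the direction depends on the comparison at equal UMIs per cell. Hist1h2ap, a histone gene, was at 99.6 against 601 CPM at 8 weeks and 110 against 238 CPM at 16 weeks, a log2 ratio of -2.12 (-2.40 to -1.85; edgeR adjusted p = 2.23e-47). In the 16-week library 1 cell gave 69.8% of its UMIs in detected cells. Birc5, which encodes survivin, was at 98.2 against 183 CPM and 55.9 against 135 CPM, a log2 ratio of -1.02 (edgeR adjusted p = 8.59e-08). It had a UMI in 12.5% and 7.32% of detected cells against 13.9% and 10.2% of undetected cells. In detected cells 1 cell gave 38.6% and 33.3% of its UMIs. Rrm2, Ube2c, Hmgb2, Stmn1 and Tubb5 were the other members called, at -0.85 to -0.37. Ube2c was seen in 12 and 4 detected cells, and 1 cell gave 70.9% and 88.2% of its UMIs there. Its 16-week interval included 0 (-0.65 to 0.34). For Rrm2, Hmgb2, Stmn1 and Tubb5 the share from 1 detected cell was at most 30.8%. Mki67 (-0.58, edgeR adjusted p = 0.188), Pcna, Mcm5, Tyms, Tk1 and Top2a were not called.

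Other genes with low ratios were scarce in both classes. Actn1, the actin crosslinker alpha-actinin, was at 16.8 against 35.5 CPM at 8 weeks and 14.5 against 41.7 CPM at 16 weeks (log2 ratio -1.24, edgeR adjusted p = 0.0106). The kinase gene Sgk1 was at 18.2 against 30.3 CPM and 12.4 against 46.9 CPM (-1.21, edgeR adjusted p = 0.0129). Smad7, an inhibitor of TGF-beta signalling, had -1.18, with an 8-week interval that included 0, as did that of Sgk1. Each of these calls rested on 13 or fewer UMIs per library in detected cells.

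Of 15 effector memory and migration genes, 4 were called lower (Crip1, Lgals3, Emp3 and Itgb7) and none higher, beside 1.29% of all genes tested called lower, and the list median was -0.01. Of 14 immediate early and stress genes, Fos and Junb were called lower, Fos at 160 against 300 CPM and 329 against 498 CPM (log2 ratio -0.72, edgeR adjusted p = 1.96e-09). Of 9 regulatory T cell genes only Tigit was called, beside 1.47% of all genes tested called higher. The list median was 0.31, and Ikzf2 had 0.31 (edgeR adjusted p = 0.437). Of 10 costimulation and cytokine genes Tnfsf11, which encodes RANKL, was called, at 143 against 103 CPM and 161 against 78.5 CPM (log2 ratio 0.71, edgeR adjusted p = 0.00196). Of 7 type I interferon genes Bst2 was called lower. None of the 8 Th17 genes had enough UMIs to be tested.

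**Figure D5:**
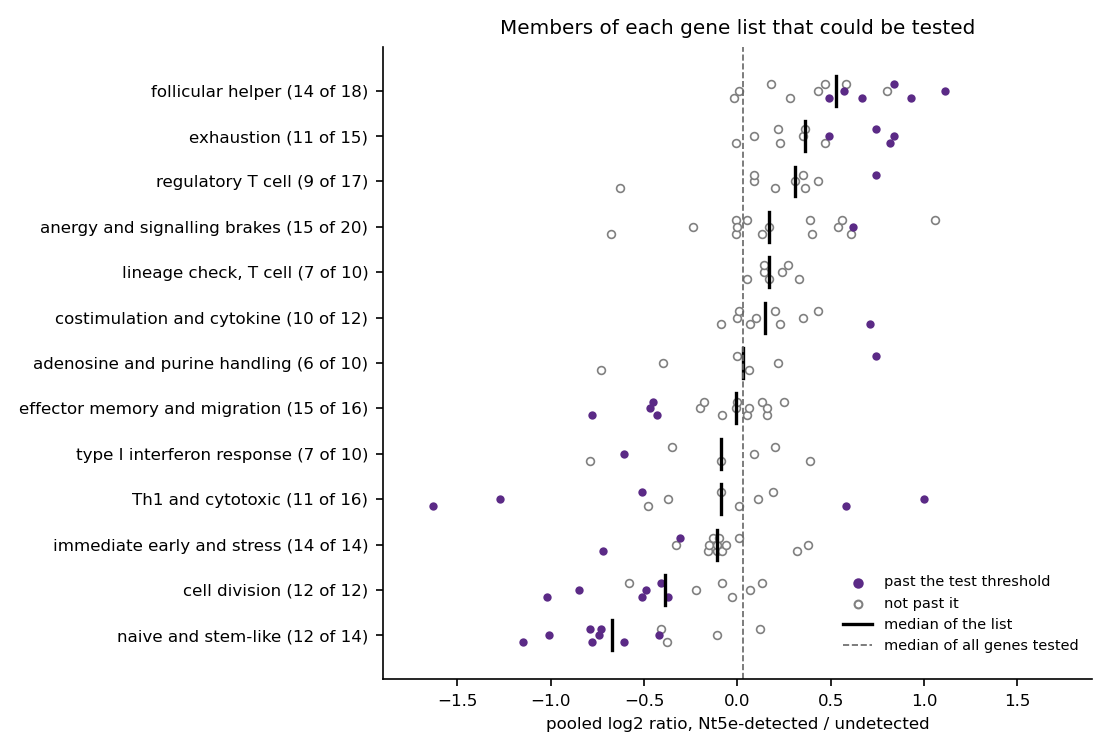
Pooled depth-matched log2 ratio (x axis) of each list member that could be tested (1 point per gene, filled where past the edgeR threshold), by list (y axis, number tested of number in the list). List medians (black bars) ran from -0.67 for naive and stem-like genes to 0.53 for follicular helper genes, beside 0.03 for all genes tested (dashed line).

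The calls were also made on narrower sets of cells. Without cells that had an Il2ra or Ikzf2 UMI, 43 genes were higher and 33 lower, and of the 53 higher calls that could still be tested all 53 kept their direction and 32 were called again. Of the 47 lower calls that could still be tested, 45 kept their direction and 24 were called again. In cells with a Cd4 UMI 43 were higher and 50 lower. Without cells with 2 or more beta chains 49 were higher and 46 lower. Without cells with 3 or more UMIs of acinar, B cell or NK and gamma-delta markers, 77 were higher and 56 lower. The latter are the cells with RNA of other cells named below. Myeloid, endothelial and islet endocrine markers were not used for that choice. Without the clones that held 2 or more detected cells, 45 genes were higher and 49 lower, of which 44 and 47 were among the first calls. Without cells in which Gm42418 exceeded 5% of UMIs, 61 were higher and 51 lower.

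To ask whether these differences were particular to Izumo1r-positive cells, the same contrast was made in cells without Izumo1r, where 50 and 31 cells had Nt5e and 731 and 863 had none. The difference between the contrasts was tested by edgeR as an interaction over 8 sums. Of 3868 genes, 12 (0.310%) passed the threshold, 325 at an unadjusted p under 0.05. In 11 of the 12 the log2 ratio was below 0 in Izumo1r-positive cells and above 0 in Izumo1r-negative cells. Of the cell division list, Hmgb2 and Tubb5 were among the 12. Hmgb2 had -0.49 against 1.19 (edgeR adjusted p = 6.14e-04), Pttg1, which encodes securin, -1.07 against 1.94, and the tubulin gene Tuba1b -0.43 against 0.98 (both edgeR adjusted p = 0.00392). The other gene was Sh2d1a, a follicular helper signalling adaptor, at 0.18 against 1.22.

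The genes that were raised with Nt5e in Izumo1r-positive cells were not shown to differ from those in Izumo1r-negative cells. Of 113 main calls that entered the interaction test, 10 passed it, all of them called lower, and no gene called higher passed. The main calls were chosen from the same Izumo1r-positive sums. Their count is therefore not comparable with the 0.310% of all genes that passed. Tbc1d4 had log2 ratios of 1.08 and 1.57 (edgeR adjusted p = 0.728), 1700019D03Rik 1.33 and 2.21 (edgeR adjusted p = 0.372), and Cd200 0.84 and 1.07 (edgeR adjusted p = 0.911). Tigit had 0.74 and 1.73, and Lag3 0.82 and 2.11 (edgeR adjusted p = 0.312 and 0.0530). Penk had 1.77 and -0.46, a difference that also missed the threshold (edgeR adjusted p = 0.214).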

How the data were processed

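Per the labels, live T cell receptor beta-positive islet cells of female NOD mice were profiled with 5' single-cell RNA and receptor libraries. The authors deposited UMI counts per gene (27998 genes) and barcode, not normalized, and contig tables with V and J genes, CDR3 sequences and counts per chain. Per the file headers the matrix software version is 3.0.1. The submitters' processing notes name the mm10 build and Seurat. The annotation, the barcode filter and what Seurat was used for are not stated in the sources used here. Positions were looked up by Ensembl identifier in GENCODE M21, an mm10 annotation.

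RNA and receptor libraries of an age were joined by barcode. Doublets were not removed. Ratios of UMIs were conditional maximum likelihood estimates over 10 depth bins per library, for genes with at least 10 UMIs expected in the detected class of each library. No pseudocount was added. The adjusted p-values came from edgeR 4.0.16 (R 4.3.3) on 4 sums with TMM factors, the library as a block and offsets from the bins. DESeq2 1.42.0 was an alternative. Nt5e, Izumo1r, Foxp3, Cd8a and Cd8b1 were left out of tests. Shares have Clopper-Pearson and differences Newcombe intervals. Python 3.11.15, numpy 2.4.6, pandas 2.3.3, scipy 1.17.1 and matplotlib 3.10.9 were used.

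The classes and the 20 gene lists were chosen with earlier results of these data known. Of 233 list genes 226 were found by symbol and 137 tested. Named genes were the 15 highest and 15 lowest calls, all tested members of the anergy and adenosine lists, and of each other list the 4 most abundant members and all calls, without ribosomal, mitochondrial and receptor segment genes and Gm42418. Others named were chosen after their values were seen. A few genes that the rule names are not reported here. Tested on simulated data for this contrast (4805 genes), edgeR called 80.0% of genes raised 2-fold and 59.1% of those lowered 2-fold. Of its 161 calls there, 5 were false. The simulated UMIs were drawn per library, class and depth bin, without clustering in single cells or clones. The share of false calls in the real data cannot be read from them for that reason. The rates were also not worked out separately for genes with most UMIs from a few cells, such as Ccl5 and Spp1 in detected cells. Whether the share of false calls holds for such genes was therefore not tested.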

Additional observations from a re-analysis of the deposited data

Results flagged for a closer look

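Ifi27l2a and Nr4a1 had library intervals on opposite sides of 0. The log2 ratio of Ifi27l2a, an interferon-induced gene, was -0.11 (-0.19 to -0.02) at 8 weeks and 0.60 (0.51 to 0.70) at 16 weeks. That of Nr4a1, an immediate early factor induced by receptor signalling, was -0.47 (-0.87 to -0.08) and 0.47 (0.08 to 0.84). Whether these ratios differ with age was not tested, since each age had 1 library and the intervals cover counting error only.

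The contrast by Nt5e detection differed between Izumo1r-positive and Izumo1r-negative cells in 12 genes by the edgeR interaction test. The Izumo1r-negative side rests on 81 detected cells, and with a minimum of 10 UMIs expected there, 7 genes passed.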

How the results depend on the processing

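The number of genes called depended on the estimate of spread more than on the choice of cells. Against 72 higher and 63 lower calls of edgeR, DESeq2 made 4 and 2, and edgeR without the replicate block, here the library, made 3 and 0. The block pairs classes of 1 library and not replicate numbers. A count minimum of 5 gave 25 and 18 calls, matched single undetected cells 40 and 36, bins crossed with Izumo1r UMIs 47 and 37, and cells without an Il2ra or Ikzf2 UMI 43 and 33. With 2 or more Nt5e UMIs as the rule there were 23 and 20. Only cells with a Cd4 UMI gave 43 higher, and without clones that held 2 or more detected cells there were 45 higher. Without TMM factors 109 were higher and 52 lower, and without depth matching 97 and 100. The higher calls that could be tested kept their direction under each of these settings, but only 40 of 72 could be tested with 2 or more Nt5e UMIs and 53 without Il2ra or Ikzf2 cells. Of the lower calls 58 of 62 kept it without depth matching, 45 of 47 without Il2ra or Ikzf2 cells and 43 of 44 with 2 or more Nt5e UMIs. No test was possible with 1 library left out, since no residual degree of freedom remains.

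The 9 genes 2-fold higher and 5 lower in both libraries became 18 and 12 with matched single cells, 19 and 32 with a count minimum of 5, and 14 and 8 with each cell of equal weight. They became 3 and 3 without the clones of repeated detection. The higher genes numbered 5 with a count minimum of 20, with 2 or more Nt5e UMIs or without cells with 2 or more beta chains. The lower genes numbered 15 without depth matching, and 8 with 20 depth bins or without cells with RNA of other cells.

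Without depth matching the list medians were 0.21 for cell division, -0.41 for type I interferon genes and -0.01 for costimulation and cytokine genes, and the ratios of Hmgb2, Stmn1 and Ube2c turned to 0.03, 0.26 and 0.17. Ube2c was at 0.15 without cells with an Il2ra or Ikzf2 UMI, Junb at 0.16 with 2 or more Nt5e UMIs and Ccl4 at 1.52 without cells with RNA of other cells. The causes were not tested. With 1 library at a time, Igfbp4 ran from -2.51 to 0.22. The list medians ran from -0.77 to -0.25 (naive and stem-like), 0.35 to 0.71 (exhaustion), -0.48 to -0.05 (Th1 and cytotoxic), -0.52 to -0.35 (cell division) and -0.40 to 0.01 (type I interferon).

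The thinned share of cells with Nt5e was 5.11% and 5.73% at 1200 UMIs, 11.5% and 11.2% at 2500 UMIs, and 18.1% and 17.3% without thinning. The clone difference ran from 8.49 to 16.7 points at 8 weeks and from 9.69 to 13.2 at 16 weeks, apart from the 2.57 and 2.42 points without clones of repeated detection. With a minimum of 10 UMIs in Izumo1r-negative cells, 7 genes passed the interaction test. Leaving out clones with repeated detection, cells rich in Gm42418, and the robust fit and interaction minimum were chosen after seeing the data.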

Other observations

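Several genes of T cell signalling outside the lists, named after their values were seen, were called in cells with Nt5e. Malt1, a protease that relays receptor signals to NF-kappa B, was at 167 against 134 CPM at 8 weeks and 242 against 125 CPM at 16 weeks (log2 ratio 0.62, edgeR adjusted p = 0.00278). The phosphatase gene Ptpn11 was at 168 against 117 CPM and 215 against 121 CPM (0.66, edgeR adjusted p = 0.00166), and the adaptor Lax1 at 91.2 against 66.4 CPM and 132 against 61.1 CPM (0.74, edgeR adjusted p = 0.00808). In the other direction, Rasgrp2, an activator of the GTPase Rap1, was at 58.9 against 84.8 CPM and 41.4 against 103 CPM (-0.85, edgeR adjusted p = 0.00102).

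Ly6a, which encodes the surface antigen Sca-1 and is induced by interferons, was at 191 against 424 CPM at 8 weeks and 317 against 484 CPM at 16 weeks (log2 ratio -0.91, edgeR adjusted p = 3.28e-15). The transcription factor Bhlhe40 was at 115 against 63.8 CPM and 139 against 96.9 CPM (0.74, edgeR adjusted p = 0.00447). Hif1a, the factor of the hypoxia response, was at 259 against 234 CPM and 344 against 204 CPM (0.46, edgeR adjusted p = 0.0164). Ptger2, a prostaglandin E2 receptor, was at 54.7 against 40.0 CPM and 58.0 against 20 CPM (0.88, edgeR adjusted p = 0.0359).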
